A study of Mus musculus with 12 samples.

Results

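The 7 genes described here, *Alas1*, *Alad*, *Uros*, *Urod*, *Cpox*, *Ppox* and *Fech*, encode enzymes of heme synthesis. They were chosen by gene symbol from the 55450 genes of the count table, and *Cpox* was selected on its own difference between the genotypes in these libraries, so that difference is given as a description without a test. All 7 were among the 20612 genes that passed the filter on low counts. Type II alveolar epithelial (AT2) cells, the surfactant-producing cells of the alveolus, had been isolated from mice of 6 to 8 weeks on the C57BL/6 background. The mice carried floxed Ahr alleles in all 4 groups: AhRf/f mice had no Cre, whereas in Sftpc-Cre;AhRf/f mice the surfactant protein C promoter drove Cre, so that AhR deletion was directed at cells that use this promoter. The cells were enriched by dispase digestion, negative selection and panning, plated on collagen I, and kept for 24 h in PBS or in 50 µg/ml of an extract of cockroach (CRE). Each of the 4 groups (AhRf/f with PBS, AhRf/f with CRE, Sftpc-Cre;AhRf/f with PBS, Sftpc-Cre;AhRf/f with CRE) had 3 RNA-seq libraries. No label says that the 3 libraries of a group came from separate mice or cultures, so p-values measure the spread between these libraries, which may be technical.

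Heme is made from glycine and succinyl-CoA in a chain of steps that begins in the mitochondrion, runs through the cytosol and returns to the mitochondrion. *Alas1* encodes the housekeeping 5-aminolevulinate synthase, which starts the chain and whose level is kept in check by heme itself. *Alad* joins aminolevulinate molecules into porphobilinogen, *Uros* closes the porphyrin ring, *Urod* trims its side chains, *Cpox* converts coproporphyrinogen III to protoporphyrinogen IX, *Ppox* oxidizes that product to protoporphyrin IX, and *Fech* inserts iron. The cytochrome P450 enzymes that the aryl hydrocarbon receptor (AhR) induces carry heme, as do catalase and the prostaglandin synthases.

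The window just upstream of the *Cpox* transcription start is shown because *Cpox* is the enzyme for which the genotypes stood furthest apart. RefSeq places it on the plus strand of GRCm38.p6 at chr16:58669958-58670207, ending at the base before the start site at 58670208, and 58.8% of its 250 bases are G or C. Capitals mark the letters GCGTG, the core that AhR and its partner ARNT recognize in a dioxin response element, and TGCGCA, the core of an NRF1 site.

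Cpox: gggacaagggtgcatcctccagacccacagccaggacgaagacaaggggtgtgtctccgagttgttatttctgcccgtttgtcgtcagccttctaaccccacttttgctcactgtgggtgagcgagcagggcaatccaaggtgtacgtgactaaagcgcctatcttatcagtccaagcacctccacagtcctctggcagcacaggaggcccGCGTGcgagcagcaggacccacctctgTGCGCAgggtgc

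The GCGTG letters begin at position -39 from the start site and the TGCGCA letters at -12. Windows were found for 6 of the 7 genes, 9 windows in all. On either strand, GCGTG occurred upstream of *Alas1*, *Alad*, *Cpox* and *Ppox*, 4 of these 6 genes, and in 28.2% of all 32851 promoter windows of 250 bases. For *Alas1* and *Alad* it occurred in 1 of their 2 windows. A gene was counted if any of its windows held the letters, whereas the shares over all promoters count windows. The count of genes and these shares are therefore not on the same scale. The longer element TNGCGTG, which contains the core, was found in none of the 9 windows and in 4.1% of all windows. The NRF1 core was found in *Cpox* alone among the 6 genes and in 6.43% of all windows. The antioxidant response element core TGACNNNGC (10.2% of all windows) and the letters AGATAA (9.99%), used as a GATA core, were absent from these 9 windows of 250 bases. With 50 further bases downstream *Cpox* held 1 AGATAA. Other letter forms of a GATA site were not searched for, so their absence is not shown. A match of letters is a description and not a site shown to be bound.

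The libraries held 68878065 to 80935797 counts each, and the 7 genes were counted deeply, from 707 counts (*Uros*) to 12183 counts (*Alas1*) in a library. Levels are given as CPM, counts scaled to a common library total after TMM normalization, unless stated otherwise. Total *Ahr* ranged from 42.94 to 56.21 CPM in AhRf/f and from 37.72 to 51.45 CPM in Sftpc-Cre;AhRf/f libraries, and counts over the whole gene do not show whether an exon was removed. The AhR target *Cyp1b1* lay at 344.1 to 464.7 CPM in AhRf/f and at 31.75 to 63.87 CPM in Sftpc-Cre;AhRf/f libraries, with no overlap between genotypes. The 12 AT2 markers summed to 7478 to 14570 CPM over the 12 libraries, the club cell gene *Scgb1a1* lay at 3959 to 8069 CPM beside 3086 to 6492 CPM for the AT2 gene *Sftpc*, and the 10 macrophage and leukocyte markers summed to 49.04 to 266 CPM. The number 1 library of each group had the most macrophage and leukocyte marker counts, 180.3 to 266 CPM against 49.04 to 76.46 CPM in the other 8 libraries. In such bulk RNA, fewer cells of a type and less RNA per cell cannot be told apart.

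Compared per transcript length, the early enzyme *Alad* was the most abundant and the last enzyme *Fech* the least. *Alad* had the highest FPKM (31.8 ± 3.27, SD, n = 12 libraries), followed by *Alas1* (18.4 ± 2.5), *Urod* (16 ± 1.8) and *Cpox* (11.5 ± 2.43). *Ppox* (4.14 ± 0.352), *Uros* (2.79 ± 0.505) and *Fech* (2.13 ± 0.309) formed the lower part of the order. *Alad* exceeded *Alas1*, and *Cpox* exceeded *Ppox*, in 12 of 12 libraries without overlap of their ranges. *Alas1* and *Urod* could not be ordered, since *Alas1* was the higher one in only 8 of 12 libraries. The ranges of *Urod* and *Cpox* overlapped too, although *Urod* was higher in 11 of 12 libraries, the exception being AhRf/f with CRE, replicate 1, where *Cpox* was 1.07 times *Urod*. The FPKM of *Uros* exceeded that of *Fech* within every library, while the ranges over all libraries overlapped. By mean CPM, not divided by length, the order was *Alas1* (126.2), *Cpox* (85.66), *Alad* (66.31), *Urod* (46.29), *Fech* (32.85), *Ppox* (20.86) and *Uros* (11.17). The order of the enzymes thus depended on the scaling by length.

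**Figure D1:**
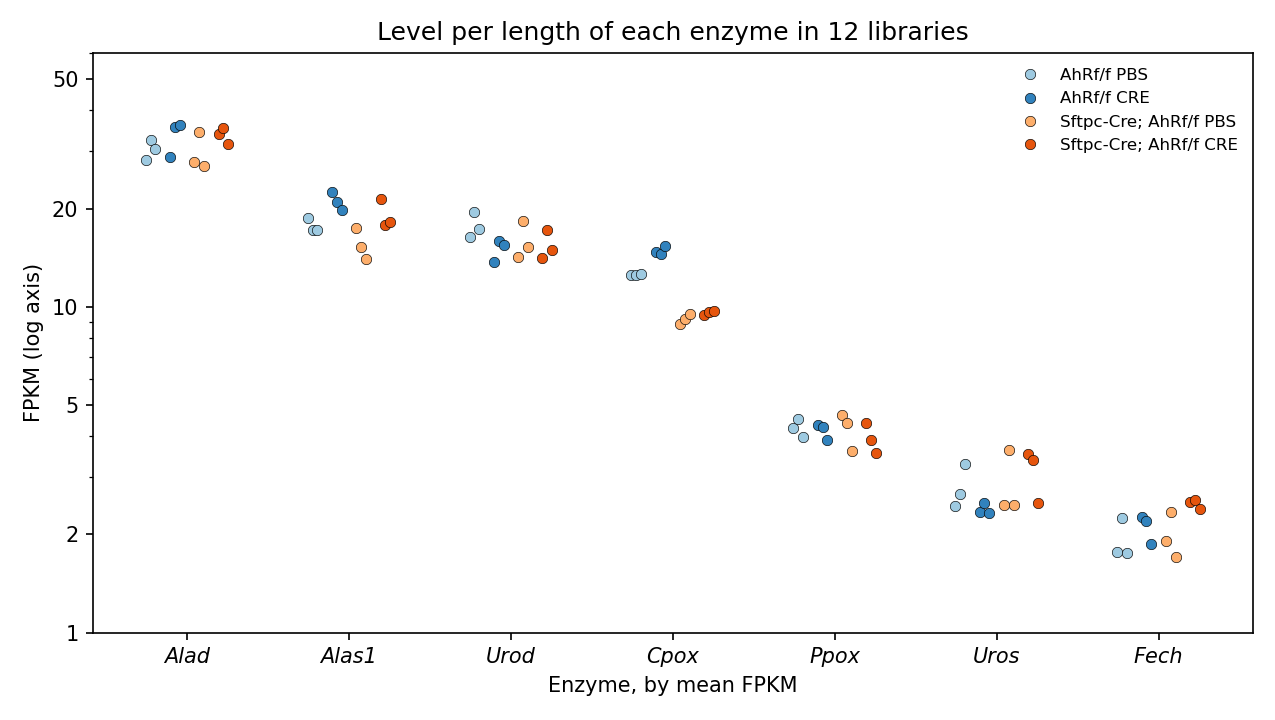
Deposited FPKM (log axis) of the 7 enzymes in the 12 libraries, with 1 point per library coloured by group and the enzymes ordered by mean FPKM. Alad lies above all others, Alas1 and Urod overlap, and Cpox is the one enzyme whose AhRf/f points (12.5 to 15.4 FPKM) are all above its Sftpc-Cre;AhRf/f points (8.84 to 9.69 FPKM).

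*Alas2*, the erythroid form of aminolevulinate synthase, had 0 counts in 9 of 12 libraries and at most 0.121 CPM, where 3 counts, the limit that a count of 0 allows, correspond to 0.0365 to 0.0446 CPM. Of the 12 erythroid markers, 5 were abundant enough to test and none was called, and their sum was 2.19 to 4.24 CPM per library. *Alas1* made up nearly all aminolevulinate synthase counts.

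**Figure D2:**
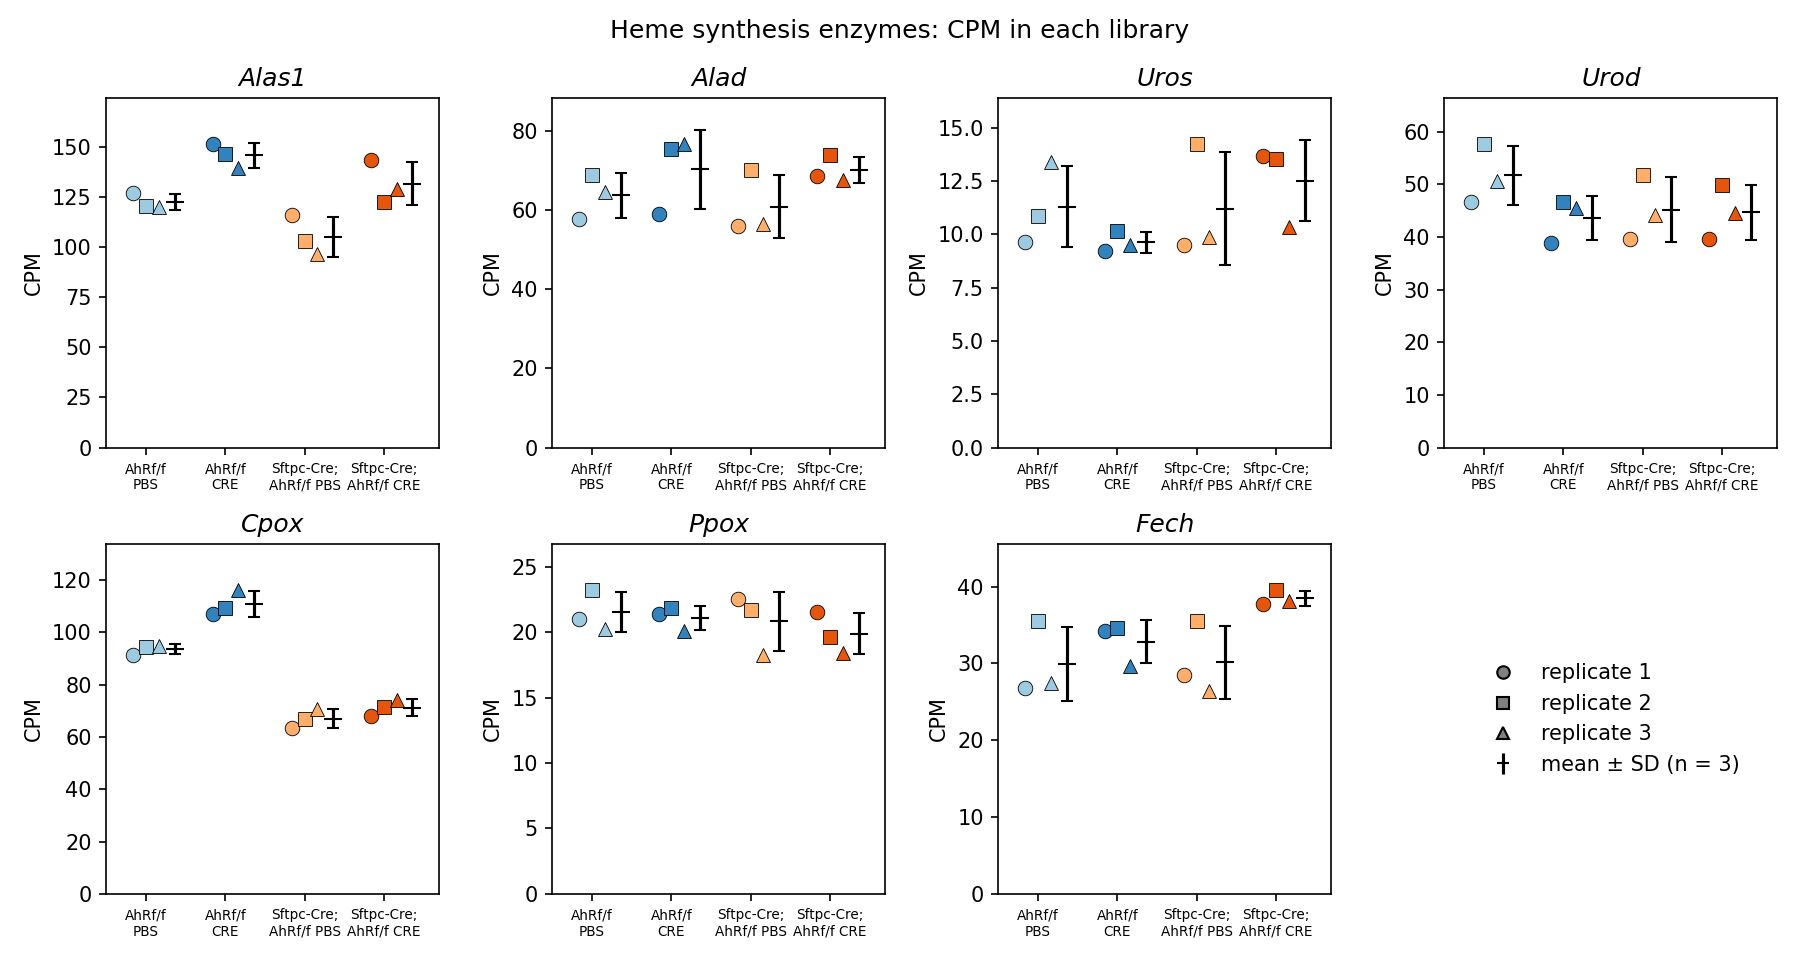
CPM of each heme synthesis enzyme in every library (circle, square and triangle for replicates 1, 2 and 3), with the mean ± SD of each group (n = 3). The Cpox points of the Sftpc-Cre;AhRf/f groups (63.4 to 74.2 CPM) lie below those of the AhRf/f groups (91.5 to 116 CPM), and Alas1 is higher with CRE than with PBS in each genotype.

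The first comparison asked how the enzymes responded to CRE. With both genotypes pooled, *Alas1* rose 1.22-fold (log2 fold change 0.29 ± 0.06, SE; edgeR's quasi-likelihood test, adjusted p = 0.0411 by the Benjamini-Hochberg method), the 1 call among the 7 enzymes, beside 1.1% of all 20612 genes tested. Of the 7 enzymes 4 were higher with CRE and 3 were lower, with a median log2 fold change of 0.17 against -0.002 over all genes tested.

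In AhRf/f cells with PBS, *Alas1* was at 126.9, 120.4 and 120.1 CPM in replicates 1, 2 and 3. With CRE it was at 151.6, 146.4 and 139.3 CPM. The 2 groups did not overlap. In Sftpc-Cre;AhRf/f cells the PBS libraries held 115.8, 102.8 and 96.52 CPM of *Alas1* and the CRE libraries 143.4, 122.7 and 128.8 CPM, again without overlap. Within same-numbered libraries *Alas1* was higher with CRE in 6 of 6 pairs, by 1.16-fold to 1.33-fold. Tested in each genotype alone, the 1.19-fold difference in AhRf/f cells (95% interval 1.05 to 1.35) had an adjusted p of 0.343 and the 1.25-fold difference in Sftpc-Cre;AhRf/f cells (1.11 to 1.42) an adjusted p of 0.25 with edgeR's quasi-likelihood test. The exact permutation test of the pooled difference, two-sided and permuted within genotype, gave p = 0.005, the smallest that 400 arrangements allow. This and the other 12 exact tests of the 7 enzymes are given unadjusted.

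The *Alas1* call lay close to the threshold. It was lost without any filter on low counts, with library size in place of TMM, with the deposited FPKM, without the number 1 library of each group (adjusted p = 0.073) and when any 1 library except Sftpc-Cre;AhRf/f with PBS, replicate 1 was left out. Over these 12 fits the adjusted p ran from 0.0253, without that library, to 0.119, and the log2 fold change from 0.26 to 0.33. Libraries with the same number deviated together between PBS and CRE of a genotype, and with the replicate number as a block *Alas1* was called in the pooled comparison (adjusted p = 0.00354), in AhRf/f cells (0.0366) and in Sftpc-Cre;AhRf/f cells (0.0185), where without the block it was not called in either genotype alone.

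*Cpox* was 1.12 times higher with CRE over both genotypes (log2 fold change 0.17 ± 0.04, SE; 95% interval of the fold 1.05 to 1.2), and it missed the threshold across all genes (edgeR, adjusted p = 0.121; exact permutation test, p = 0.01 unadjusted). The pooled CRE contrast is orthogonal to the genotype difference on which *Cpox* was picked. Both use the same estimate of the spread between libraries, so the p-values of *Cpox* for CRE are not free of its selection. The CRE contrasts within 1 genotype share libraries with the picked difference and are given for *Cpox* without a test. In AhRf/f cells *Cpox* was at 91.49, 94.54 and 94.77 CPM with PBS and at 107.1, 109.2 and 116.3 CPM with CRE. Every CRE library of this genotype was above every PBS library, and the fitted fold was 1.18. In Sftpc-Cre;AhRf/f cells *Cpox* was at 63.38, 66.7 and 70.65 CPM with PBS and at 67.92, 71.63 and 74.19 CPM with CRE. Here the groups overlapped, and the fold was 1.06. *Cpox* was higher with CRE in 6 of 6 same-numbered pairs, by 1.05-fold to 1.23-fold. With the replicate block *Cpox* was called in the pooled comparison (adjusted p = 0.0212).

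*Fech* was highest in the Sftpc-Cre;AhRf/f libraries with CRE, at 37.76, 39.57 and 38.08 CPM, above the 28.5, 35.51 and 26.43 CPM of the same genotype with PBS. The AhRf/f libraries, at 26.81, 35.49 and 27.48 CPM with PBS and 34.26, 34.65 and 29.62 CPM with CRE, overlapped. The pooled difference of *Fech*, 1.18-fold (95% interval 1.02 to 1.37), was not called (edgeR, adjusted p = 0.358; exact permutation test, p = 0.035 unadjusted). *Alad* was higher with CRE in 6 of 6 pairs, by 1.02-fold to 1.23-fold, with a pooled fold of 1.13 (0.989 to 1.28) that was not called (edgeR, adjusted p = 0.512). Its group means were 63.8 ± 5.6 and 70.4 ± 9.95 CPM with PBS and CRE in AhRf/f cells, while Sftpc-Cre;AhRf/f cells had 61 ± 7.98 and 70.1 ± 3.3 CPM (SD, n = 3 each).

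For *Uros*, *Urod* and *Ppox* the pooled values with CRE were lower and none was called. *Urod* was lower with CRE in AhRf/f cells, at 38.8, 46.57 and 45.5 CPM against 46.61, 57.73 and 50.71 CPM with PBS. These groups did not overlap, although the nearest libraries held 46.57 and 46.61 CPM, and the 0.844-fold difference (95% interval 0.693 to 1.03) was not called (edgeR, adjusted p = 0.606). In Sftpc-Cre;AhRf/f cells *Urod* averaged 45.2 ± 6.2 CPM with PBS and 44.7 ± 5.17 CPM with CRE. *Ppox* varied least of the 7, from 18.3 to 23.26 CPM over all libraries, and its pooled fold with CRE was 0.967 (0.861 to 1.09). *Uros* was the least counted, from 9.22 to 14.3 CPM, and its pooled fold was 0.975 (0.792 to 1.2).

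Of the 6 enzymes other than *Cpox*, 2 (*Alas1*, *Urod*) had no overlap between CRE and PBS in AhRf/f cells, where 16.5% of all genes tested had none, and 2 (*Alas1*, *Fech*) in Sftpc-Cre;AhRf/f cells, where it was 11.8%. By edgeR 0 of these 6 were called in either genotype alone. The share of all genes called was 0.233% in AhRf/f and 0.262% in Sftpc-Cre;AhRf/f cells, with 1929 and 1336 genes at an unadjusted p below 0.05, among them *Alas1* in the former and *Alas1* and *Fech* in the latter.

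The second comparison set Sftpc-Cre;AhRf/f against AhRf/f cells. *Cpox*, picked for this difference, averaged 93.6 ± 1.83 CPM in AhRf/f and 66.9 ± 3.64 CPM in Sftpc-Cre;AhRf/f cells with PBS, and 111 ± 4.85 and 71.2 ± 3.15 CPM with CRE (SD, n = 3 each). The fold was 0.715 with PBS (log2 fold change -0.48 ± 0.06, SE), 0.643 with CRE (-0.64 ± 0.06) and 0.678 over both (-0.56 ± 0.04). Within each treatment the highest Sftpc-Cre;AhRf/f library was below the lowest AhRf/f library, 70.65 against 91.49 CPM with PBS and 74.19 against 107.1 CPM with CRE. *Cpox* made up 23 to 26.6% of the summed CPM of the 7 enzymes in AhRf/f and 17.3 to 21.9% in Sftpc-Cre;AhRf/f libraries. The 12 AT2 markers summed to 13240 ± 861.7 CPM in AhRf/f and 10650 ± 3226 CPM in Sftpc-Cre;AhRf/f cells with PBS, and to 11690 ± 674.9 and 11010 ± 3431 CPM with CRE, and 0 of the 12 were called for genotype in the pooled contrast (edgeR). In Sftpc-Cre;AhRf/f replicates 1, 2 and 3 they summed to 7478, 10540 and 13930 CPM with PBS, where *Cpox* was at 63.38, 66.7 and 70.65 CPM, and to 7719, 10740 and 14570 CPM with CRE, where *Cpox* was at 67.92, 71.63 and 74.19 CPM. *Cpox* thus had the same order as the AT2 markers within each treatment of this genotype, though not over these 6 libraries together. The part of the AT2 markers in the genotype difference of *Cpox* was not tested. In AhRf/f replicates 1, 2 and 3 the AT2 markers summed to 12990, 14200 and 12530 CPM with PBS. *Cpox* was there at 91.49, 94.54 and 94.77 CPM. With CRE they summed to 11840, 12270 and 10950 CPM, where *Cpox* was at 107.1, 109.2 and 116.3 CPM. The order was thus not shared in AhRf/f cells, where replicate 3 had the lowest AT2 sum and the highest *Cpox* in each treatment. *Cpox* was picked for its lower level in Sftpc-Cre;AhRf/f cells, so its place beside these sums is a description. Without the number 1 libraries the pooled log2 fold change of *Cpox* was -0.55.

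**Figure D3:**
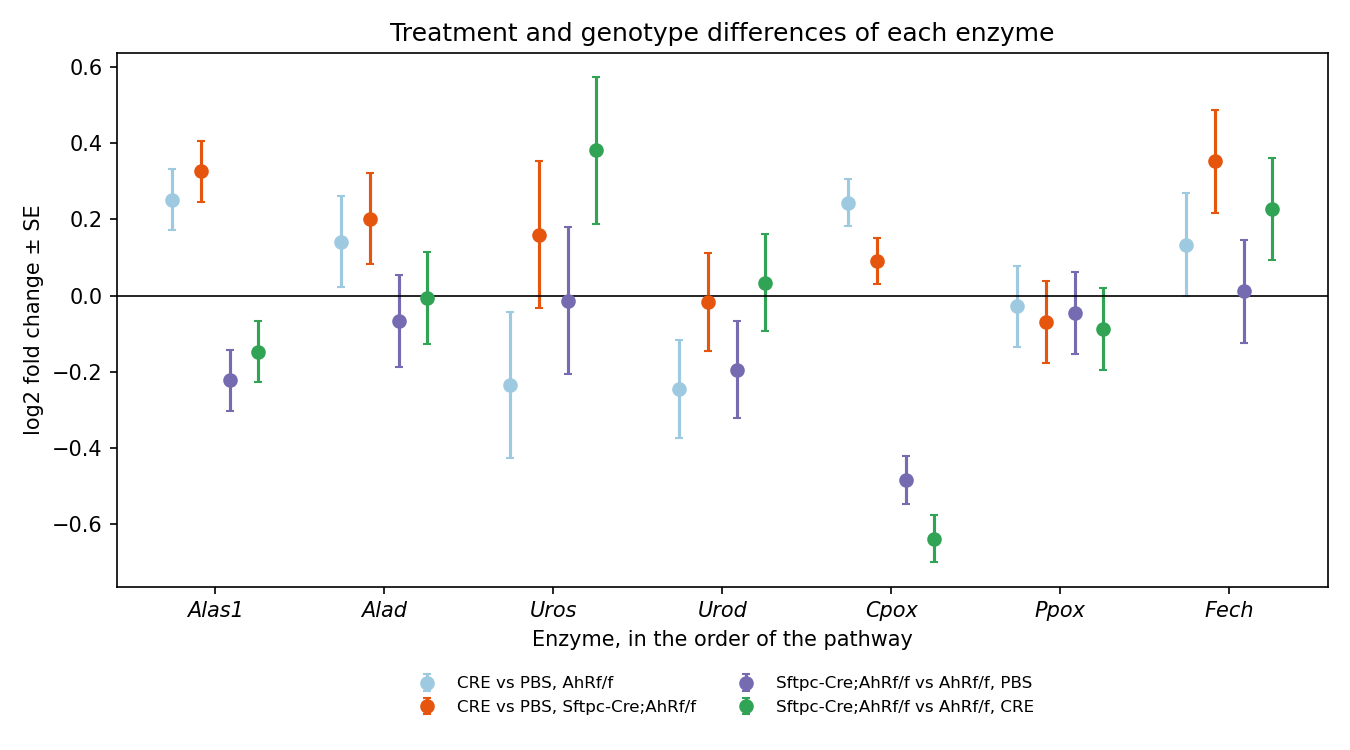
log2 fold change ± SE of the 7 enzymes, in the order of the pathway, for CRE against PBS in each genotype and for Sftpc-Cre;AhRf/f against AhRf/f cells in each treatment (edgeR fit to 12 libraries). Both genotype values of Cpox (-0.48 and -0.64), which was picked for them, lie below those of every other enzyme, and both CRE values of Alas1 (0.25 and 0.33) lie above 0.

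None of the other 6 enzymes was called for genotype by edgeR's quasi-likelihood test. This holds over both treatments (0.631% of all genes called, 2046 at an unadjusted p below 0.05), with PBS (0.15%, 1725 genes) and with CRE (0.17%, 1227 genes), and each of the other tools run also called 0 of the 6. *Alas1* came nearest and was lower in Sftpc-Cre;AhRf/f cells, with a pooled fold of 0.88 (95% interval 0.806 to 0.96; adjusted p = 0.268, edgeR; exact permutation test within treatment, p = 0.01 unadjusted). Its PBS libraries did not overlap between the genotypes, 96.52 to 115.8 CPM against 120.1 to 126.9 CPM, and its CRE libraries did. The pooled folds of the others were 0.976 for *Alad* (0.856 to 1.11), 1.14 for *Uros* (0.923 to 1.4), 0.946 for *Urod* (0.823 to 1.09), 0.955 for *Ppox* (0.851 to 1.07) and 1.09 for *Fech* (0.939 to 1.26). Each of these 5 intervals includes a fold of 1.

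Leaving out *Cpox*, whose separation follows from how it was picked, the genotypes did not overlap with PBS for 1 of 6 enzymes, *Alas1*, beside 14% of all genes tested. With CRE they did not overlap for 2 of 6, *Uros* and *Fech*, beside 11%, and both were the higher ones in Sftpc-Cre;AhRf/f cells. *Uros* was at 13.7, 13.55 and 10.33 CPM there against 9.224, 10.15 and 9.489 CPM in AhRf/f cells (fold 1.3, 95% interval 0.971 to 1.75; edgeR, adjusted p = 0.879). With PBS the 2 genotypes of *Uros* overlapped, at 9.657, 10.86 and 13.41 CPM in AhRf/f and 9.504, 14.26 and 9.876 CPM in Sftpc-Cre;AhRf/f cells. Over both treatments Sftpc-Cre;AhRf/f cells had higher values for 2 of the 7 enzymes and lower values for 5, and the median log2 fold change was -0.07 for the enzymes and -0.006 for all genes.

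The third comparison asked whether the response to CRE differed between the genotypes. The interaction of genotype and CRE was called for 0 of the 6 enzymes tested and for 0% of all genes by edgeR's quasi-likelihood test, which had 763 genes at an unadjusted p below 0.05, whereas DESeq2 called 18 genes and limma-voom 1 gene, none of them 1 of the 6. The difference of the log2 fold changes was 0.07 ± 0.11 (SE) for *Alas1*, 0.39 ± 0.27 for *Uros*, 0.23 ± 0.18 for *Urod* and 0.22 ± 0.19 for *Fech*. For *Cpox*, given without a test, it was -0.15 ± 0.09, from a log2 fold change with CRE of 0.24 ± 0.06 in AhRf/f and 0.09 ± 0.06 in Sftpc-Cre;AhRf/f cells.

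Genes that bring in substrate and iron, move porphyrins and heme, or turn over aminolevulinate synthase formed a list of 21, all of them tested. With CRE in both genotypes pooled, 2 rose, none fell and 19 were not called (median log2 fold change -0.01). *Slc48a1*, which encodes the heme transporter HRG1, averaged 417 ± 24.9 CPM with PBS and 568 ± 30.5 CPM with CRE in AhRf/f cells, and in Sftpc-Cre;AhRf/f cells it averaged 339 ± 22.9 and 505 ± 42.9 CPM (edgeR, pooled log2 fold change 0.51 ± 0.06, adjusted p = 0.00181). *Abcb6*, a porphyrin transporter, rose from 44.8 ± 4.92 to 57.9 ± 8.3 CPM and from 36 ± 4.43 to 51.9 ± 1.16 CPM (0.45 ± 0.09, adjusted p = 0.0364). For genotype 0 of the 21 were called by edgeR, while 17 had lower and 4 higher pooled values in Sftpc-Cre;AhRf/f cells (median -0.13).

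Of the 4 genes of heme breakdown, 1 rose with CRE. *Blvrb*, a biliverdin reductase, went from 56.3 ± 5.24 to 90.5 ± 8.45 CPM in AhRf/f cells and from 42.9 ± 4.02 to 82.9 ± 13.3 CPM in Sftpc-Cre;AhRf/f cells (edgeR, pooled log2 fold change 0.82 ± 0.09, adjusted p = 0.00137). *Hmox1*, the inducible heme oxygenase, had a pooled log2 fold change of 0.55 ± 0.12 and missed the threshold (adjusted p = 0.0675, edgeR). The list's median was 0.32 with CRE and -0.22 for genotype, where 4 of 4 genes were lower in Sftpc-Cre;AhRf/f cells and 0 were called.

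In the list of 13 genes of heme and iron sensing, iron storage and uptake, 2 rose with CRE and 11 were not called (median 0.17). *Slc11a2*, the iron transporter DMT1, rose from 67.3 ± 1.12 to 114 ± 8.52 CPM in AhRf/f and from 63.9 ± 1.62 to 106 ± 12.4 CPM in Sftpc-Cre;AhRf/f cells (edgeR, adjusted p = 0.00019 pooled). *Nfe2l2*, the antioxidant response factor NRF2, rose with CRE (0.38 ± 0.07, adjusted p = 0.036) and was the 1 gene of the list called for genotype, lower in Sftpc-Cre;AhRf/f cells (-0.43 ± 0.07, adjusted p = 0.0272, edgeR).

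A further list held 13 cytochrome P450 partners and other heme proteins, and another 7 AhR targets, of which 6 could be tested; among these the *Cyp1* genes encode heme proteins, whereas *Ahrr*, *Tiparp*, *Nqo1* and *Aldh3a1* do not. With CRE *Cyb5a*, the cytochrome b5 that passes electrons to P450 enzymes, and *Cat*, catalase, rose, by 0.41 ± 0.07 and 0.37 ± 0.07 on the log2 scale (edgeR, adjusted p 0.0161 and 0.024), and 11 of 13 were not called (median -0.03). For genotype *Ptgs2*, a heme-containing prostaglandin synthase, was lower in Sftpc-Cre;AhRf/f cells (log2 fold change -1.06 ± 0.11, adjusted p = 0.000974, edgeR) and 12 were not called (median -0.18). All 6 AhR targets tested were called lower in Sftpc-Cre;AhRf/f cells (median log2 fold change -1.53), among them the P450 genes *Cyp1b1* (-3.14 ± 0.19) and *Cyp1a1* (-1.52 ± 0.27; adjusted p 2.36e-05 and 0.0324, edgeR). With CRE 1 of the 6, *Nqo1*, a quinone reductase, rose (0.62 ± 0.09, adjusted p = 0.0088).

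**Figure D4:**
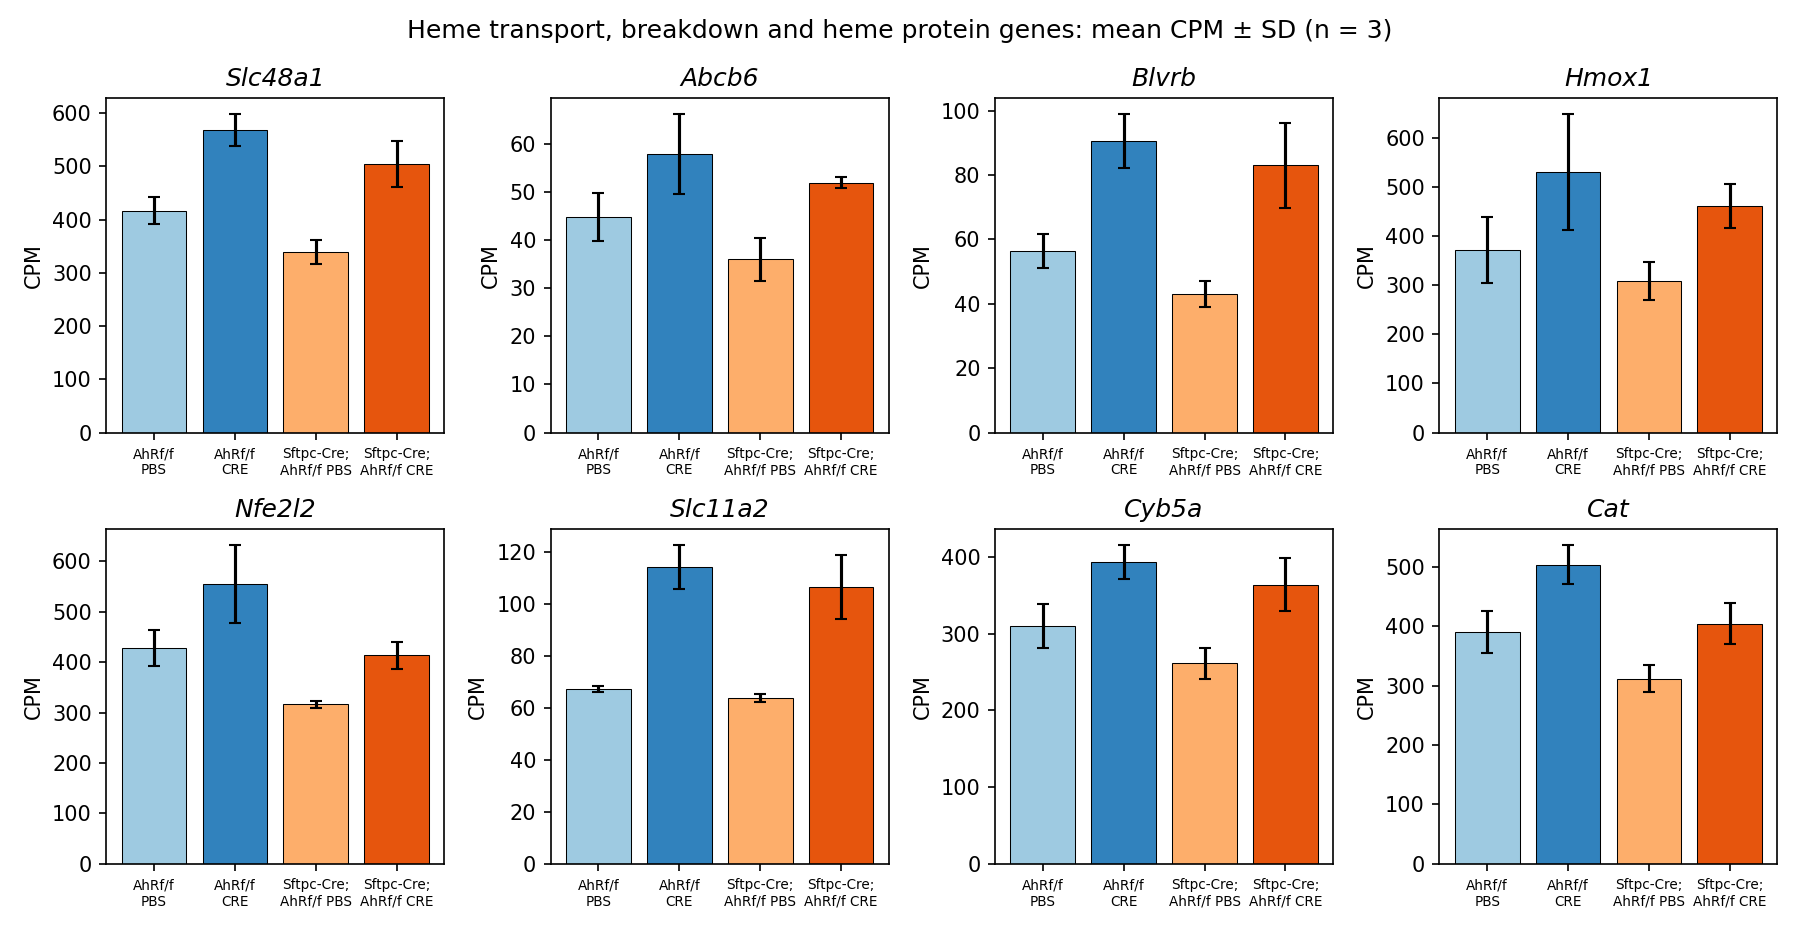
Mean CPM ± SD (n = 3) in the 4 groups for 8 genes around heme: transporters (Slc48a1, Abcb6, Slc11a2), heme breakdown (Blvrb, Hmox1), NRF2 (Nfe2l2) and heme proteins (Cyb5a, Cat). The mean is higher with CRE than with PBS in each genotype for all 8, and the pooled CRE contrast was called for 7, all except Hmox1. These 7 are the genes of their lists that were called, so their shared rise follows from the choice. In those lists 19 of 21 (heme supply), 3 of 4 (breakdown), 11 of 13 (sensing and iron) and 11 of 13 (heme proteins) were not called.

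Marker genes of the cells themselves also moved. Of 6 markers of type I alveolar cells, *Ager*, *Clic5* and *Rtkn2* fell with CRE and 3 were not called (median log2 fold change -0.51), and their sum went from 1553 to 1889 CPM with PBS to 1021 to 1258 CPM with CRE in AhRf/f libraries. Of 12 AT2 markers, *Etv5* fell with CRE and 11 were not called. None of the 10 macrophage and leukocyte markers and none of the 10 markers of fibroblasts, endothelium, club and ciliated cells was called for CRE or genotype in the pooled contrasts (edgeR). The part of these cells in the values of *Alas1* and *Cpox* was not tested.

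The genes whose pattern over the 12 libraries was most like that of *Cpox*, by the root mean square difference of log2 CPM after each gene's mean was removed, were *Cab39l* (0.118), *Pik3r3* (0.126), *Dynlt1-ps1* (0.146), *Pmm1* (0.146) and *2900052L18Rik* (0.147), against a median of 0.444 over all genes tested. *Alas1*, at 0.24, ranked 397 among the tested genes and was the nearest of the other 6 enzymes, and *Uros*, at 0.451, was the farthest. Over the 4 group means the nearest genes were *BC025920* (mean 0.988 CPM), *Rph3a* (0.191), *Cbs* (3.94), *Sytl2* (86.75) and *Ypel5* (73.59), with differences of 0.017 to 0.045. These are descriptions of likeness in libraries that also served to pick *Cpox*.

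By position, *Cpox* lies on chromosome 16 (58670292 to 58717636, plus strand, GRCm38) and *Alas1* on chromosome 9 (106233455 to 106248654, minus strand). *Alad* (62509169 to 62519918) and *Urod* (116989965 to 116994413) share chromosome 4, *Ppox* is on chromosome 1 (171275990 to 171281186), *Uros* on chromosome 7 (133686243 to 133710072) and *Fech* on chromosome 18 (64452914 to 64490251), all on the minus strand. Exons of *Cpox* overlap those of *Gpr15* on the opposite strand over 204 bases, 3.06% of the *Cpox* exon bases, and *Gpr15* had 8 to 34 counts per library. For *Alas1* the overlap with the antisense gene *4930500F10Rik* (0 to 12 counts) covers 7.53% of exon bases, and for *Ppox* that with *B4galt3* (2535 to 3420 counts) covers 17.5%. The libraries were stranded, but whether the counting used strand is not stated, so the *Ppox* values carry this uncertainty most.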

How the data were processed

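RNA-seq of AT2 cells from 12 libraries in 4 groups was analysed. The authors made stranded mRNA libraries, aligned reads with STAR 2.7.2b to GRCm38 (also named mm10) and took gene counts with Salmon, and Partek is named for annotation. The deposited counts are whole numbers per gene, not normalized, and the deposited FPKM were made by the authors from them. All 55450 gene IDs matched GENCODE M21, which gave symbols and positions; the annotation behind the counts is not certain. Value columns without a mapped sample numbered 0.

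Counts were TMM-normalized and filtered (filterByExpr by group, minimum count 10), leaving 20612 genes, and 7 contrasts of 4 group means over all 12 libraries were tested with edgeR 4.0.16 (quasi-likelihood, R 4.3.3) with Benjamini-Hochberg adjustment at 0.05 over all genes tested. Intervals of folds are 95%. SEs came from the quasi-likelihood F. Log2 CPM used a prior count of 2. DESeq2 1.42.0, limma 3.58.1 (trend and voom), other scalings, no filter, log2(FPKM + 1), leaving out libraries and a replicate block were alternatives. Statistics were tested on simulated data. With 68878065 to 80935797 counts per library, 3 counts, the floor for a count of 0, equal 0.0365 to 0.0446 CPM; this covers counting error only. Any 2 libraries of a group differed by more than sampling noise (chi-square per degree of freedom 58.4 to 121).

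Same-numbered libraries were checked for pairing over 14543 genes. Their deviations correlated at 0.729, 0.418 and 0.651 between PBS and CRE in AhRf/f and at 0.589, 0.542 and 0.325 in Sftpc-Cre;AhRf/f cells, so the numbers pair them. Between genotypes the number 1 libraries correlated at 0.42 with PBS and 0.413 with CRE. Numbers 2 and 3 correlated at -0.029 to 0.106, so the numbers do not pair all libraries across genotypes. The pairing comes from the data; no label states it.

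The members, gene lists and tests were chosen with earlier results of these data known. Named genes are the 7 enzymes, list genes called and up to 4 examples a list, *Ahr*, *Cyp1b1* and *Cyp1a1*, the 5 genes most like *Cpox* by each measure, and overlapping genes. Motifs were searched on both strands of RefSeq promoter windows (250 bases upstream, or with 50 downstream) from GRCm38.p6.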

Additional observations from a re-analysis of the deposited data

How the results depend on the processing

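The count of enzymes called for CRE with both genotypes pooled, 1, became 0 with library size alone, with no filter, with log2(FPKM + 1) and in 8 libraries with the number 1 of each group left out (an alternative chosen after seeing the data), and 0 to 1 when each library was left out in turn. The log2 fold change of *Alas1* (0.289) was then 0.279, 0.289, 0.262 and 0.29, and 0.256 to 0.326 with each library left out. With the replicate block, the paired fit, the counts were 2 pooled, 2 in AhRf/f and 1 in Sftpc-Cre;AhRf/f cells (1, 0 and 0 without it). Both counts of 2 include *Cpox*, whose tests share libraries with the difference it was picked for. Within AhRf/f cells *Cpox* is given without a test, so its call there is not taken as a result. The call that remains in AhRf/f cells with the block is that of *Alas1*. The block changed no other call of the 7 enzymes, and the cause was not tested. Over all genes the block called 1358, 748 and 439 for CRE (226, 48 and 54 without it) and 223, 71 and 55 for genotype (130, 31 and 35). For CRE the block was the replicate number within a genotype. For genotype it was the number shared across genotypes, which does not pair all of those libraries. DESeq2 called 661, 339 and 221 for CRE, and 510, 220 and 156 for genotype. Fitted to the 6 libraries compared alone, 13 genes were called for CRE in Sftpc-Cre;AhRf/f cells and 15 for genotype with PBS; with the number 1 libraries left out, 64 were called for genotype pooled and 19 with CRE.

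*Cpox* moved on log2(FPKM + 1), where the genotype value was -0.498 pooled and -0.414 with PBS; leaving out each library gave -0.581 to -0.542 pooled, -0.525 to -0.446 with PBS and -0.668 to -0.602 with CRE. Small uncalled values changed sign, the cause not tested. For genotype with PBS, *Uros* (-0.013) was 0.022 with library size alone, 0.008 on log2(FPKM + 1) and -0.224 to 0.129 with each library left out, *Ppox* (-0.046) -0.105 to 0.04 and *Fech* (0.011) -0.124 to 0.152, or -0.019 in 8 libraries. For genotype with CRE, *Alad* (-0.006) was 0 with library size alone, 0.003 with limma-trend, 0.005 with voom, 0.009 on log2(FPKM + 1), 0.001 with the block and -0.119 to 0.062 with each library left out, and *Urod* (0.034) -0.043 to 0.114. For CRE, *Uros* pooled (-0.037) ranged from -0.09 to 0.069, *Ppox* in AhRf/f (-0.028) from -0.069 to 0.031 and *Urod* in Sftpc-Cre;AhRf/f cells (-0.016) from -0.104 to 0.095, and *Uros* there (0.16) was -0.022 in 8 libraries. The interaction of *Alad* (0.059) ranged from -0.054 to 0.173, or -0.04 in 8 libraries, and that of *Ppox* (-0.04) from -0.126 to 0.019. The other 956 values kept direction and call. Where a 95% interval of a fold includes 1, a difference of a size within it was not excluded with 3 libraries a group.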
